A study of Mus musculus with 8 samples.

Results

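The genes described here are 9 of the 52778 rows of a mouse RNA-seq table. They are the HCN channel genes Hcn4, Hcn2 and Hcn3, the T-type calcium channel genes Cacna1g and Cacna1h, the L-type calcium channel gene Cacna1d, and the sinus node transcription factor genes Shox2, Tbx3 and Isl1. They were found by symbol on the primary chromosomes, 1 row each. Of the 9, 8 were listed for their family or role. Hcn4 was also listed because it was lower in the knockout, so its difference between the groups is given as a description with no test.

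The libraries came from ventricular heart tissue of mouse embryos at embryonic day 11.5. There were 4 libraries from conditional knockout embryos (cKO; Rps19bp1 fl/fl; Xmlc2-Cre +/−, in which a Cre active in cardiomyocytes removes floxed Rps19bp1) and 4 from control embryos, whose alleles the labels do not give. The genotype field of all 8 samples reads C57BL/6 WT, the treatment field gives the knockout, and part of the extraction text speaks of cortical neurons. Rps19bp1, whose nucleolar product is a partner of the ribosomal protein S19, stood at 14.96 ± 3.14 TPM in cKO and 39.9 ± 3.93 TPM in control (SD, n = 4), or 37.5% of control, in tissue that also holds cells other than cardiomyocytes (log2 change -1.37, limma adjusted p = 0.000508). Levels are in TPM, a unit corrected for transcript length in which all libraries have an equal total, so genes can be set side by side, while the depth behind each value is unknown. Changes are differences of log2(TPM + 1), cKO minus control, from limma.

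Heart rhythm starts in pacemaker cells that drift to threshold by themselves. HCN channels open on hyperpolarization, carry the inward "funny" current and are sped up by cAMP. T-type calcium channels and the L-type channel Cav1.3, encoded by Cacna1d, carry the calcium current of the later drift. In the embryo Hcn4 is first expressed broadly in the early heart and later narrows to the sinus node and conduction system, where Isl1, Shox2 and Tbx3 maintain the pacemaker program and hold back that of working muscle.

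The stretch of chromosome 9 before Hcn4 is shown first, because the gene on its other side had the profile over the 8 libraries closest to that of Hcn4. The Hcn4 row spans chr9:58822949-58863175 on the plus strand of GRCm38. The row of Rec114, a gene of meiotic recombination, spans chr9:58652856-58822706 on the minus strand. Both rows thus start beside the same 242 bases and run apart. Another annotation, given below, places both starts elsewhere. The 250 bases before the Hcn4 start (chr9:58822699-58822948, plus strand) are printed 5′ to 3′ from the RefSeq promoter table of GRCm38.p6, with the 250 bases before Hcn2 (chr10:79716384-79716633, plus strand) beside them as the other promoter of the HCN family in that table. Capitals mark each match to the GC box letters GGGCGG on either strand.
Hcn4: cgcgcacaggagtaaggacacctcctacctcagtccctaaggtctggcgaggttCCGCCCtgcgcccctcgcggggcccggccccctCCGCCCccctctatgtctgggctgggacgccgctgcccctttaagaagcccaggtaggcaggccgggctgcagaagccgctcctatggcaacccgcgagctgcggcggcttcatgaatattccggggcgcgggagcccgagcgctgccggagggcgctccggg
Hcn2: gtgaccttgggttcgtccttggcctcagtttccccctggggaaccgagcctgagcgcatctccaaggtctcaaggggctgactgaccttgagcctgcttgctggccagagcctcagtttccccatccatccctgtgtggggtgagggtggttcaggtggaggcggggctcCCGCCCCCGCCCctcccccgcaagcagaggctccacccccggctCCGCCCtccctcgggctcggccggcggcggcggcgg
The Hcn4 window held 2 GC boxes, and the Hcn2 window held 3. Of 32851 RefSeq promoter windows of this length, 32.7% held at least 1 GC box and 16.7% held 2 or more. G and C made up 71.2% of the Hcn4 window, a share above that of 92.2% of the windows, and its 25 CpG dinucleotides compare with a median of 6. The Hcn2 window was similar, with 70.4% G and C, above that of 91.2% of the windows, and 16 CpG dinucleotides. Both strands were also searched for GGTGTGA, a T-box site, which was in neither the Hcn4 nor the Hcn2 window and stood in 3.33% of all windows. A homeodomain site of the NK2 class, AAGTG, was not in these windows either and stood in 40.7% of all windows. Neither overlaps the GC box letters. The first 8 bases of the Hcn4 window lie within the Rec114 row.

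Hcn4, the main HCN gene of the early heart, was lower in every cKO library than in any control library. Replicates 1 to 4 of cKO were at 13.2, 15.98, 15.6 and 18.95 TPM, and replicates 1 to 4 of control were at 30.7, 27.7, 26.1 and 27.5 TPM. Values per library are given in this order of replicates throughout. The groups stood apart, with the highest cKO library, replicate 4, below the lowest control library, replicate 3. The means were 15.9 ± 2.36 TPM in cKO and 27.99 ± 1.97 TPM in control (SD, n = 4), so cKO held 56.9% of the control level. On the log2(TPM + 1) scale the fitted difference was -0.79 with a standard error of 0.0964, the 18th lowest of 15541 rows tested. Among all rows tested, 10.3% were lower in cKO without overlap of the groups, and since Hcn4 was chosen on this difference nothing is read from that share. In bulk tissue, fewer Hcn4-expressing cells and less Hcn4 RNA per cell cannot be told apart.

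Hcn2 and Hcn3 were present at far lower levels than Hcn4, and neither was higher in cKO without overlap of the groups. Hcn2, the isoform of ventricle and brain, held 0.467, 0.467, 0.410 and 0.505 TPM in cKO and 0.473, 0.521, 1.02 and 0.680 TPM in control. The highest Hcn2 value belonged to control replicate 3, and the groups overlapped. Hcn3, another isoform of the family, held 0.556, 0.720, 0.648 and 0.708 TPM in cKO and 0.564, 0.825, 0.442 and 0.662 TPM in control, with the cKO range inside the control range. Both averaged under 1 TPM and so were not tested. Their sum was 1.12 ± 0.0938 TPM in cKO and 1.30 ± 0.183 TPM in control (SD, n = 4), with ranges of 1.02 to 1.21 and 1.04 to 1.47 TPM. Hcn4 made up 93.4% ± 0.533 of the summed TPM of Hcn2, Hcn3 and Hcn4 in cKO and 95.5% ± 0.865 in control (SD, n = 4). It was the most abundant of the 3 in all 8 libraries.

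**Figure D1:**
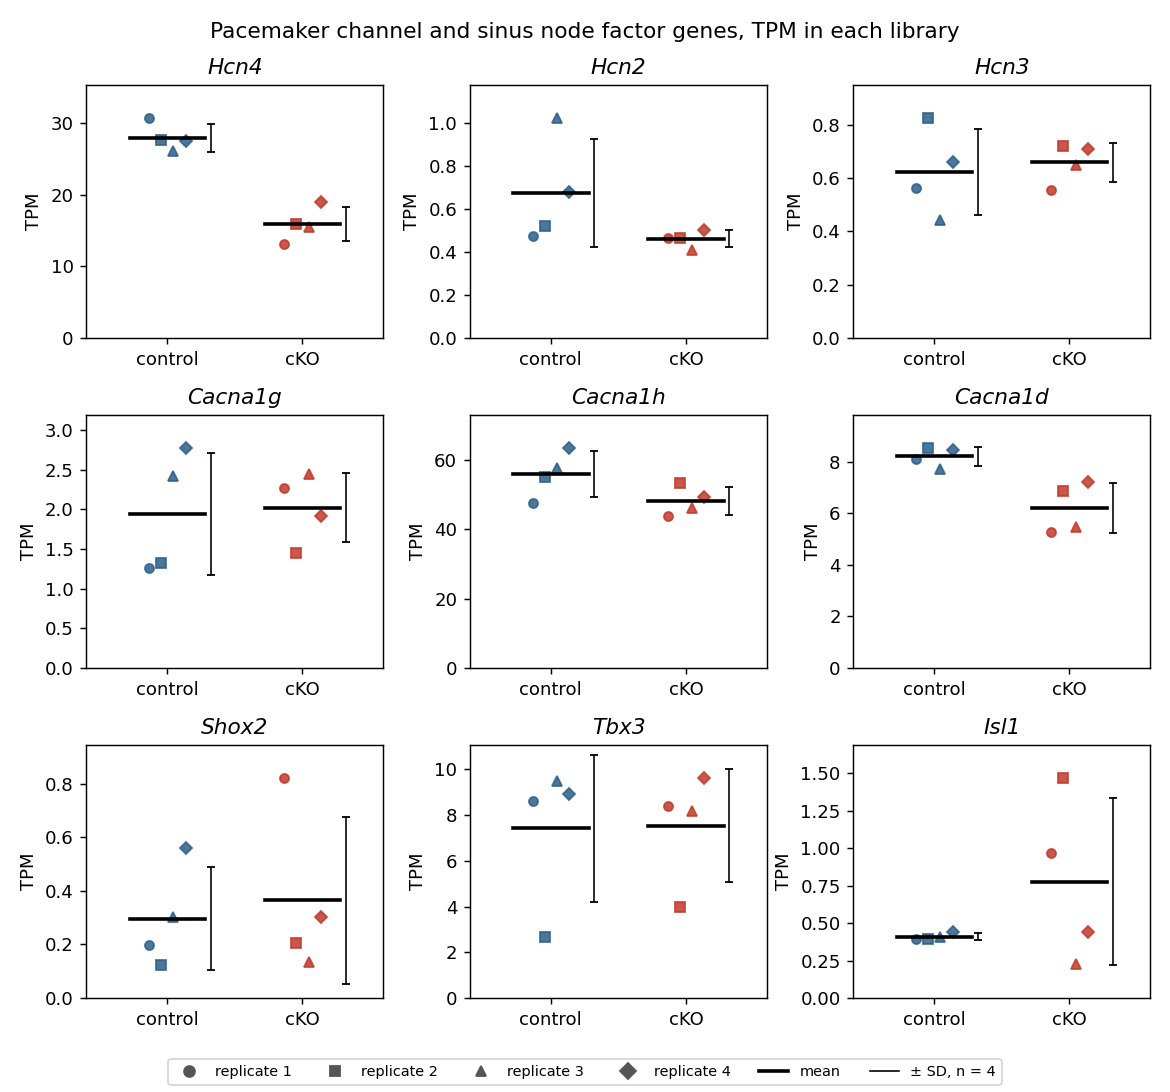
TPM of the 9 genes in each library, with control (blue) and cKO (red) on the x axis, 1 marker shape per replicate number, the group mean as a black line and ± SD (n = 4) beside it; the y axes start at 0 and differ between genes. Hcn4 and Cacna1d are the 2 genes whose groups do not overlap, Tbx3 is low in the replicate 2 library of both groups, and Hcn2, Hcn3, Shox2 and Isl1 average under 1 TPM in both groups.

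Proteins that bind HCN channels were examined from a fixed list. Of its 4 members tested beside Hcn4, 0 passed an adjusted p of 0.05 (limma, Benjamini-Hochberg over all rows tested), where 6.4% of all rows did, and 1 had an unadjusted p under 0.05. That gene was Cav3, the muscle caveolin, at 82.5 ± 6.00 TPM in cKO and 94.9 ± 5.49 TPM in control (SD, n = 4), and its log2 change was -0.20 (limma adjusted p = 0.0848). Kcne2, a small accessory subunit, held 1.43 ± 0.0958 TPM in cKO and 1.63 ± 0.561 TPM in control (log2 change -0.09, 95% interval -0.43 to 0.25). Pex5l, the gene of the neuronal HCN partner TRIP8b, lay between 0.0432 and 0.224 TPM over the 8 libraries. Cav3 passed without cKO replicate 2, which gave the list 1 call.

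None of the calcium channel genes listed with Hcn4 passed the test. Of the 4 listed genes other than Hcn4 that averaged at least 1 TPM (Cacna1d, Cacna1h, Cacna1g and Tbx3), 0 passed an adjusted p of 0.05 with limma and 2, Cacna1d and Cacna1h, had an unadjusted p under 0.05, where 23.7% of all rows tested did. Their median log2 change was -0.07, and that of all rows was -0.02. Among these 4 genes the groups did not overlap in 1, Cacna1d, where they did not overlap in 15.6% of all rows (10.3% lower and 5.33% higher in cKO).

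Cacna1d (chr14:30039941-30491156, minus strand) encodes Cav1.3, the L-type channel that opens at lower voltage than the main cardiac one. It held 5.27, 6.85, 5.49 and 7.20 TPM in cKO and 8.12, 8.54, 7.72 and 8.45 TPM in control. All cKO libraries lay below all control libraries, and cKO replicates 1 and 3 were the lowest, as cKO replicate 1 was for Hcn4. The means were 6.20 ± 0.968 and 8.21 ± 0.373 TPM (SD, n = 4), or 75.6% of control, with a log2 change of -0.36 (SE 0.0973, 95% interval -0.58 to -0.15). The change missed the threshold (limma adjusted p = 0.0550). It passed when the filter was a mean of at least 5 TPM (adjusted p = 0.0493) and without cKO replicate 4 (log2 change -0.43, adjusted p = 0.0336), and the adjusted p ranged from 0.0336 to 0.145 over 19 alternatives. The rows of Dcp1a on the opposite strand (19.3 TPM on average) and several predicted genes overlap Cacna1d, and whether the counting used strand is not given in the sources used here.

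Cacna1c, which encodes Cav1.2, the L-type channel of working myocardium, was far more abundant than Cacna1d. It held 54.4 ± 8.13 TPM in cKO and 59.2 ± 3.28 TPM in control (SD, n = 4), with overlapping groups and a log2 change of -0.13 (95% interval -0.34 to 0.08, limma adjusted p = 0.460).

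Of the T-type channels, Cacna1h (chr17:25374285-25436334, minus strand), which encodes Cav3.2, was the most abundant of the 9 genes. It held 43.8, 53.2, 46.03 and 49.1 TPM in cKO and 47.5, 54.9, 57.5 and 63.4 TPM in control. The groups overlapped, since cKO replicates 2 and 4 exceeded control replicate 1. The log2 change was -0.21 (SE 0.0886, 95% interval -0.41 to -0.01), which did not pass after adjustment (limma adjusted p = 0.187).

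Cacna1g (chr11:94408391-94474400, minus strand) encodes Cav3.1, the T-type channel of the adult sinus node. It held 2.28, 1.45, 2.45 and 1.92 TPM in cKO and 1.26, 1.32, 2.43 and 2.78 TPM in control. Control replicates 3 and 4 were high, control replicates 1 and 2 low, and the groups overlapped, with all cKO libraries inside the control range. The log2 change of 0.06 had a 95% interval of -0.36 to 0.49 (limma adjusted p = 0.875), an interval that covers changes in both directions. The direction of Cacna1g also turned without single libraries, down to -0.05 without control replicate 1. Cacna1i, the T-type gene of brain, was listed at 0 in 5 libraries and reached at most 0.0245 TPM.

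Over the fixed list of 10 pore genes, 5 were tested and 0 passed with limma, with a median log2 change of -0.13 and 2 genes at an unadjusted p under 0.05. Of 12 accessory subunit genes, 8 were tested and 0 passed, with a median log2 change of 0.00 and 1 gene, Cacng7, at an unadjusted p under 0.05 (log2 change 0.42, limma adjusted p = 0.111).

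Of the 3 sinus node factors, Shox2 and Isl1 averaged under 1 TPM and so were not tested. Shox2, a homeobox gene of the sinus venosus and node, held 0.822, 0.205, 0.135 and 0.301 TPM in cKO and 0.198, 0.123, 0.304 and 0.561 TPM in control. The groups overlapped, with cKO replicate 1 the highest. The Shox2 row shares 408 bases with Rsrc1 on the opposite strand, which stood at 24.3 TPM on average, so values this low are uncertain.

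Isl1, a LIM homeobox gene of the second heart field and the sinus node, held 0.969, 1.47, 0.230 and 0.438 TPM in cKO and 0.396, 0.394, 0.409 and 0.442 TPM in control. The 4 control libraries stood close together, while the cKO libraries spread to both sides of them, with cKO replicates 1 and 2 above and replicate 3 below all controls. The 8 markers of the outflow tract and second heart field, Isl1 among them, summed to 63.3 to 89.7 TPM in cKO and 54.7 to 64.4 TPM in control. That sum was highest in cKO replicates 2 (89.7 TPM) and 1 (73.5 TPM), the 2 libraries with the most Isl1. Of these markers 4 were tested and 1 rose, where 2.16% of all rows did. It was Sema3c, a secreted guidance cue, at 26.3 ± 3.56 TPM in cKO and 19.4 ± 2.21 TPM in control (SD, n = 4), and its log2 change was 0.41 (limma adjusted p = 0.0392). Sema3c passed under 9 of 19 alternatives. The part of these markers in the Isl1 values was not tested.

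Tbx3 (chr5:119670534-119684724, plus strand), a T-box repressor of the working muscle program in the node and the atrioventricular canal, did not differ between the groups beyond their spread. It held 8.37, 3.98, 8.19 and 9.63 TPM in cKO and 8.60, 2.65, 9.49 and 8.93 TPM in control. In both groups the library numbered 2 was the lowest, well under the other 3. The means were 7.54 ± 2.46 and 7.42 ± 3.20 TPM (SD, n = 4), and its log2 change was 0.08 (SE 0.343, 95% interval -0.68 to 0.84, limma adjusted p = 0.917). The direction rested on single libraries, since the log2 change was -0.28 without control replicate 2 and -0.04 without cKO replicate 4. Without both libraries numbered 2 it was also -0.04, with a standard error of 0.0878.

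**Figure D2:**
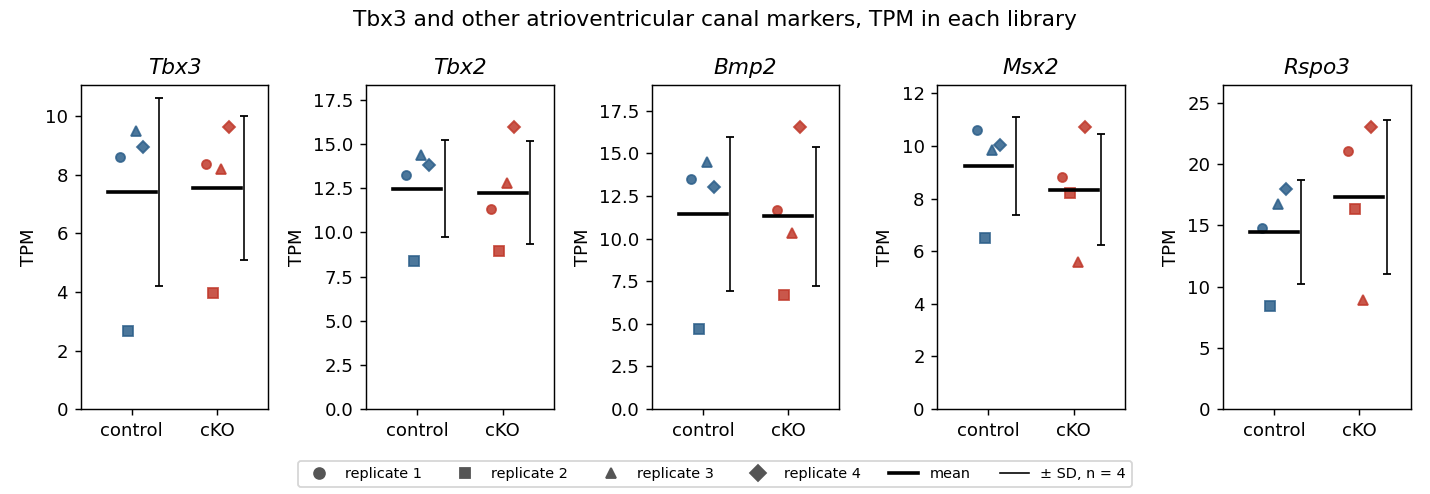
TPM of Tbx3 and the 4 other atrioventricular canal markers in each library (blue control, red cKO, marker shape for the replicate number, black line for the mean, ± SD with n = 4). Control replicate 2, the blue square, is the lowest control library for all 5 genes, and cKO replicate 2 is the lowest cKO library for Tbx3, Tbx2 and Bmp2.

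Of the 4 other markers of the atrioventricular canal, Bmp2 and Tbx2 were lowest in the same libraries as Tbx3 in both groups. Control replicate 2 was the lowest control library for Bmp2, a signal that induces this region (4.71 TPM, with the other controls at 13.03 to 14.5 TPM), and for Tbx2, a close relative of Tbx3 (8.39 TPM, with the others at 13.3 to 14.4 TPM). Rspo3 and Msx2 were lowest in replicate 2 among the controls but in replicate 3 among the cKO libraries, at 8.90 and 5.60 TPM. The 5 markers of the canal summed to 30.7 TPM in control replicate 2 and to 60.7 to 64.99 TPM in the other controls. In cKO they summed to 44.1 TPM in replicate 2, 45.8 TPM in replicate 3, 61.3 TPM in replicate 1 and 75.8 TPM in replicate 4. All 5 markers were tested, and 0 passed with limma or had an unadjusted p under 0.05. The part of these markers in the Tbx3 values was not tested.

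The order of the levels per length was Cacna1h, Hcn4, then Cacna1d and Tbx3 together, then Cacna1g and the 4 scarce genes. In control, Cacna1h (55.8 TPM on average), Hcn4 (27.99) and Cacna1d (8.21) had ranges that did not touch, while Tbx3 (7.42) overlapped both Cacna1d and Cacna1g (1.95). In cKO, Cacna1h (48.02), Hcn4 (15.9) and Tbx3 (7.54) had ranges apart, Tbx3 and Cacna1d (6.20) overlapped, and Cacna1d stood apart from Cacna1g (2.02). In control Hcn2 and Hcn3 overlapped, as did Isl1 and Shox2. In cKO the ranges of Cacna1g, Isl1 and Hcn3 overlapped in turn, and those of Hcn2 and Shox2 overlapped. Hcn4 averaged at the 57.1 percentile of all rows tested, Cacna1h at the 79.8 percentile and Cacna1g at the 11.1 percentile.

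Markers of other heart regions were set beside these levels. Among atrial markers Sln, the atrial calcium pump inhibitor, lay between 0 and 2.49 TPM. The ventricular light chain Myl2 lay between 8890 and 10413 TPM. Sln was named after its values were seen, and another atrial marker, Kcna5, lay between 2.34 and 5.44 TPM. The 8 atrial markers summed to 7672 to 9066 TPM in cKO and 8098 to 8755 TPM in control, most of it Myl7 and Myl4, which the embryonic ventricle also expresses. Of 7 atrial markers tested, where 4.23% of all rows fell, 1 fell, Angpt1 (log2 change -0.40, limma adjusted p = 0.0446), which passed under 6 of 19 alternatives. The 12 sinus node markers, of which 5 are genes described above or Tbx18, summed to 169 to 185 TPM in cKO and 174 to 196 TPM in control. Of the 8 tested, Hcn4 included, 3 had a log2 change below 0 and 5 above, and their median was 0.06. Among the 7 other than Hcn4, 2 fell and 1 rose, where 4.23% of all rows fell and 2.16% rose, and 0 of the 7 passed without the libraries numbered 2. Cpne5 fell (6.90 ± 0.932 against 9.76 ± 0.674 TPM, SD, n = 4, a difference of -0.45 in log2 with a limma adjusted p of 0.0237), and so did Gjc1, the connexin 45 gene (log2 change -0.26, adjusted p = 0.0329). Tbx18, which epicardium expresses as well, rose (log2 change 0.31, adjusted p = 0.0128). Smoc2 (log2 change 0.43, adjusted p = 0.123) and Ntm (0.22, adjusted p = 0.179) did not pass and had values in the other direction from Cpne5 and Gjc1. Cpne5 passed under 12 of 19 alternatives and Gjc1 under 7. The epicardial markers, 6 genes including Tbx18, were higher in sum in cKO (327 to 418 TPM) than in control (269 to 302 TPM), and 4 of the 6 rose, where 2.16% of all rows did, or 1 with no filter on low values and 1 without the libraries numbered 2. The 13 markers of neural crest and neurons, which also can express Isl1, summed to 13.4 to 17.97 TPM in cKO and 7.59 to 16.4 TPM in control. Of these, 3 were tested and 0 passed with limma, with 0 at an unadjusted p under 0.05.

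Trabecular myocardium, from which the ventricular conduction system arises, had markers that differed in both directions. Of 8 tested, 2 fell and 1 rose, where 4.23% of all rows fell and 2.16% rose. Gja5, the connexin 40 gene, held 97.5 ± 11.1 TPM in cKO and 158 ± 15.4 TPM in control (SD, n = 4, log2 change -0.69, limma adjusted p = 0.00308). Cited1 had a log2 change of -0.32 (adjusted p = 0.0222) and Nppb, a natriuretic peptide gene, of 0.54 (adjusted p = 0.0410). Gja5 passed under 19 of 19 alternatives, Cited1 under 13 and Nppb under 7. The 8 trabecular markers summed to 7085 to 9826 TPM in cKO and 5928 to 6999 TPM in control, and most of each sum was Nppa, a natriuretic peptide gene that did not pass (4882 to 7403 TPM in cKO and 3723 to 4561 TPM in control, log2 change 0.44, limma adjusted p = 0.0768). Ventricular markers Hand1 (log2 change -0.63) and Irx4 (-0.35) fell as well, with limma adjusted p of 0.00195 and 0.00308, while Myl2, Myl3, Hey2 and Mycn did not pass, so 2 of 6 fell, where 4.23% of all rows did. Of 10 cardiomyocyte markers 0 passed with limma, where 6.4% of all rows did. An unadjusted p under 0.05 was found for 2 of them, and for 23.7% of all rows. The log2 change was below 0 in 9 of the 10, beside 55.8% of all rows, with a median of -0.05. In 2 of the 10 the cKO libraries were lower without overlap, as in 10.3% of all rows. The sum of the 10 was 32068 to 34258 TPM in cKO and 32923 to 36506 TPM in control. Markers of other cell types were also set beside Hcn4. Of 7 mesenchymal markers 3 rose (median log2 change 0.47, sums of 827 to 1001 TPM in cKO and 563 to 721 TPM in control), where 2.16% of all rows rose. That count was 1 with no filter on low values and 1 without the libraries numbered 2. Of 6 endocardial, 6 erythroid and 5 macrophage markers 0 passed with limma, where 6.4% of all rows did. An unadjusted p under 0.05 was found for 4, 0 and 1 of them, and for 23.7% of all rows. Of the endocardial markers 5 were higher in cKO and 1 lower (median log2 change 0.17). Their sums did not overlap, at 554 to 613 TPM in cKO and 501 to 540 TPM in control. Of the macrophage markers 4 were higher and 1 lower, with sums of 12.4 to 24.4 TPM in cKO and 12.3 to 16.98 TPM in control. Erythroid sums ran from 1747 to 3746 TPM in cKO and from 1962 to 7133 TPM in control. The part of these markers in the Hcn4 values was not tested.

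The 2 gene neighbours of Hcn4 differed from each other. Rec114 held 4.57, 5.85, 4.73 and 6.24 TPM in cKO and 10.9, 9.73, 9.19 and 10.7 TPM in control, so all cKO libraries were below all controls. Its log2 difference was -0.81 (SE 0.1003), against -0.79 for Hcn4, and the cKO level was 52.9% of control. Within each library Rec114 stood at a similar share of Hcn4. The share was 34.7%, 36.6%, 30.4% and 32.9% in cKO and 35.3%, 35.2%, 35.2% and 38.9% in control. These shares overlapped between the groups while the levels did not. On the other side, Neo1, a netrin and RGM receptor gene that ends 11503 bases beyond Hcn4, lay between 50.3 and 55.9 TPM in cKO and between 48.4 and 50.4 TPM in control (log2 difference 0.06, SE 0.0482).

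**Figure D3:**
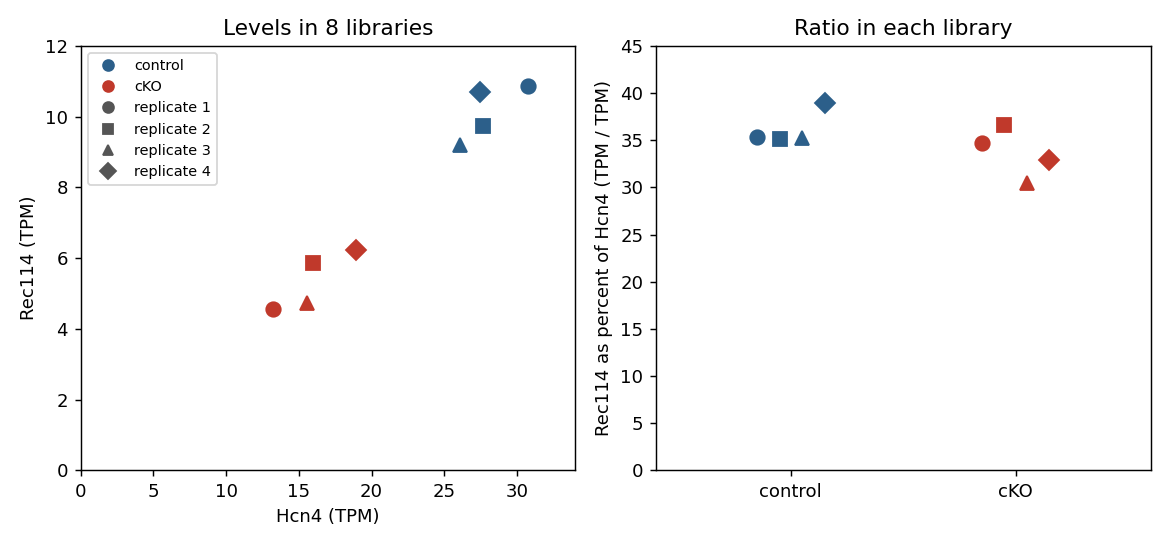
Left, Rec114 against Hcn4 in TPM in the 8 libraries (blue control, red cKO, marker shape for the replicate number); right, Rec114 as a percent of Hcn4 in each library. The 4 cKO libraries lie low on both axes, from 4.57 to 6.24 TPM of Rec114, while the ratio lies between 30.4% and 38.9% in all 8 libraries.

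The Rec114 row is longer than the gene in another annotation. GENCODE M21, also on GRCm38, places Rec114 at chr9:58652850-58743964 and starts Hcn4 at 58823412, which leaves 79447 bases between them, where the deposited rows leave 242. The Rec114 row thus takes in sequence next to the Hcn4 start that GENCODE M21 does not assign to Rec114, and which part of the row the reads came from cannot be told from the table. The 250 bases printed above precede the start of the Hcn4 row and adjoin neither gene start of GENCODE M21.

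Among the rows tested, Rec114 was also the gene whose profile was closest to that of Hcn4. Likeness was measured as the root mean square difference of log2(TPM + 1) over the 8 libraries after subtraction of each gene's mean, with predicted genes and pseudogenes left out. This measure keeps the group difference that Hcn4 was chosen for. Genes that fell by a similar amount therefore come out close, and nothing further is read from the likeness. Rec114 differed from Hcn4 by 0.0757 on this measure. The next were Rmi2, a subunit of the complex that dissolves recombination intermediates (0.114), E2f1, an S phase transcription factor (0.124), Ung, a uracil DNA glycosylase (0.131), and Cenpv, a centromere protein gene (0.132). E2f1 held 23.9, 24.4, 27.05 and 33.3 TPM in cKO and 43.7, 41.95, 43.8 and 38.8 TPM in control. As with Hcn4, cKO replicate 4 was the highest cKO library and cKO replicate 1 the lowest. E2f1 was picked for a profile near that of Hcn4 over these same libraries, so nothing is read from this order. The order of control libraries differed, since control replicate 4 was the lowest for E2f1 and control replicate 3 for Hcn4.

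The nearest tested genes on either side of the other 8 members were 16, of which 4 fell and 0 rose. For the other 8 members the fallers were Fdps beside Hcn3, a cholesterol synthesis enzyme gene (log2 change -0.39, limma adjusted p = 0.0155), Cerox1 beside Cacna1h, a long noncoding RNA gene (-0.31, adjusted p = 0.0380), Tbx5 beside Tbx3 (-0.24, adjusted p = 0.0386) and the pseudogene Rpl34-ps2 beside Isl1 (-0.78, adjusted p = 0.0282). Among all rows tested 4.23% fell. Rpl34-ps2 averaged 0.589 TPM in cKO and 1.69 TPM in control, so it reached the filter of 1 TPM only through control. Nothing is read from its call. Fdps passed under 17 of 19 alternatives, Cerox1 under 7, Tbx5 under 5 and Rpl34-ps2 under 9 of 18. The distances ran from 44807 bases for Fdps to 144135 bases for Rpl34-ps2. None of these 4 lay as near its member as Rec114 did to Hcn4. Polrmt lay nearer, 16 bases from Hcn2, and did not pass (limma adjusted p = 0.461). Dcp1a and Rsrc1, which overlap Cacna1d and Shox2, did not pass either (limma adjusted p = 0.663 and 0.287).

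**Figure D4:**
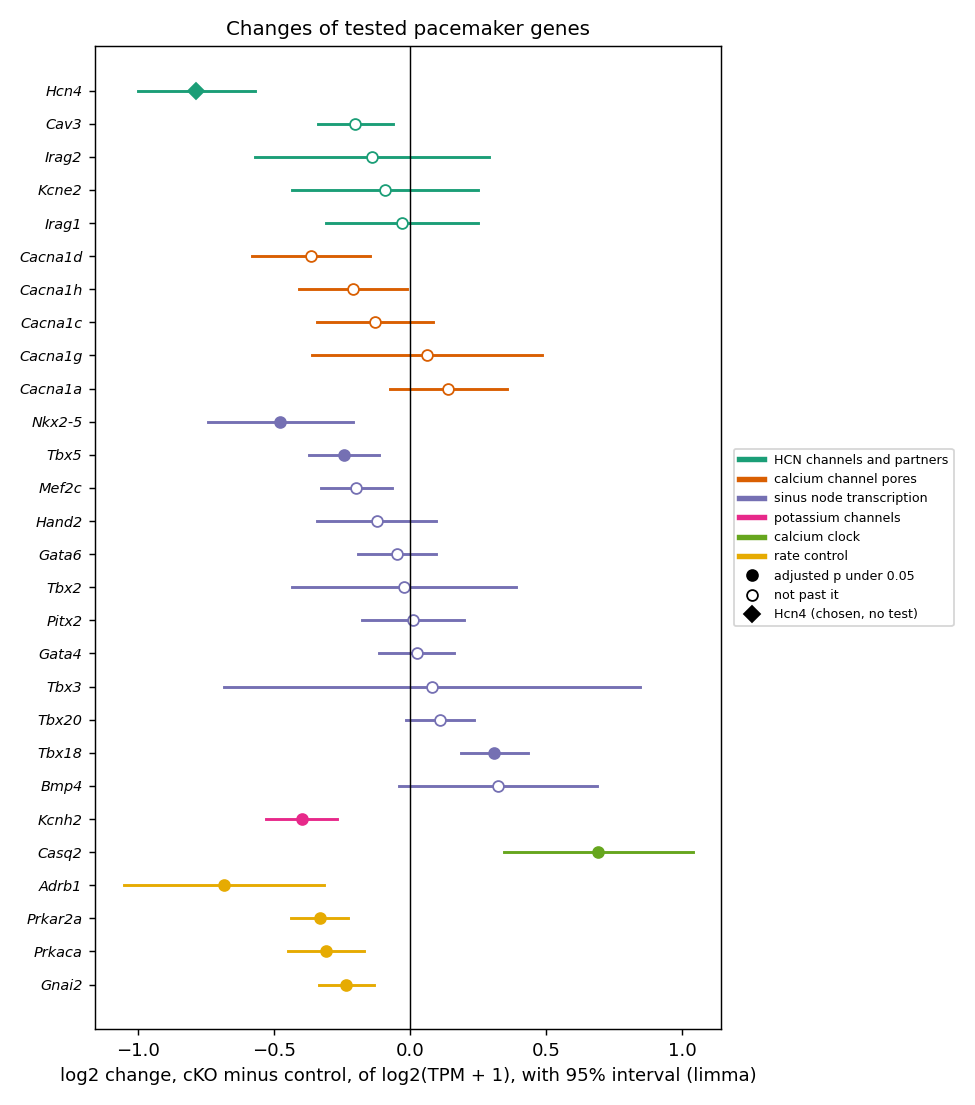
Log2 change (cKO minus control, on log2(TPM + 1)) with its 95% interval from limma for all tested genes of the HCN, calcium pore and sinus node transcription lists, and for the genes of 3 other lists with an adjusted p under 0.05; filled circles passed that threshold, open circles did not, and the diamond is Hcn4, which was chosen for its difference. Nkx2-5, Tbx5, Kcnh2 and 4 rate control genes lie below 0, and Tbx18 and Casq2 above.

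The wider pacemaker network was described from fixed lists. Of 12 tested transcription factor and signal genes of the sinus node list, 2 fell and 1 rose, where 4.23% of all rows fell and 2.16% rose, with a median log2 change of -0.01. Nkx2-5, the homeobox gene that keeps the working muscle program and represses Hcn4 and Tbx3 in the chambers, held 169.6, 176.5, 224 and 248 TPM in cKO and 262, 319, 259.9 and 287 TPM in control. All cKO libraries were below all controls, with cKO replicates 1 and 2 the lowest. Its log2 change was -0.48 (limma SE 0.120, adjusted p = 0.0453). Tbx5, a T-box activator of conduction genes, fell to 33.8 ± 1.38 TPM in cKO against 40.2 ± 2.70 TPM in control (SD, n = 4), and its log2 change was -0.24 (limma adjusted p = 0.0386). Tbx18, a sinus horn and epicardial gene, rose. Nkx2-5 and Tbx5 each passed under 5 of 19 alternatives, and Tbx18 under 18.

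Of 13 tested potassium channel genes 1 fell and 0 rose, where 4.23% of all rows fell and 2.16% rose, with a median log2 change of -0.06. Kcnh2, which encodes the pore of the rapid delayed rectifier, fell to 67.1 ± 4.52 TPM in cKO against 88.6 ± 4.10 TPM in control (SD, n = 4), and its log2 change was -0.40 (limma SE 0.0587, adjusted p = 0.00667). Kcnh2 passed under 18 of 19 alternatives and did not pass without both libraries numbered 2.

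Of 12 tested calcium clock genes, which cycle calcium through the sarcoplasmic reticulum, 1 rose and 0 fell, where 2.16% of all rows rose and 4.23% fell, with a median log2 change of 0.00. Casq2, the calcium buffer of the reticulum, rose to 98.4 ± 25.4 TPM in cKO against 59.2 ± 5.35 TPM in control (SD, n = 4), and its log2 change was 0.69 (limma adjusted p = 0.0322). The cKO libraries of Casq2 held 109, 83.8, 129 and 72.01 TPM, all above the control range of 52.7 to 64.6 TPM. It passed under 9 of 19 alternatives. Ryr2, the release channel, had a log2 change of -0.08 (95% interval -0.24 to 0.09).

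The rate control list holds genes of receptors, G proteins and their regulators, and cAMP signaling. Of its 25 tested genes 4 fell and 0 rose, where 4.23% of all rows fell and 2.16% rose. The median log2 change was -0.08 and 19 of the 25 were below 0, beside 55.8% of all rows. Prkar2a, a regulatory subunit of protein kinase A, fell to 43.2 ± 2.12 TPM in cKO against 54.6 ± 0.913 TPM in control (SD, n = 4), and its log2 change was -0.33 (limma adjusted p = 0.00585). Prkaca, the catalytic subunit, had a log2 change of -0.31 (adjusted p = 0.0229) and Gnai2, an inhibitory G protein subunit, of -0.23 (adjusted p = 0.0193). Adrb1, the main cardiac beta adrenergic receptor gene, named after its values were seen, held 2.34, 3.42, 5.21 and 3.66 TPM in cKO and 6.86, 5.79, 5.62 and 7.05 TPM in control (log2 change -0.68, adjusted p = 0.0392). All 4 cKO libraries of Adrb1 were below all controls. Prkar2a passed under 19 of 19 alternatives, Gnai2 under 13, Prkaca under 12 and Adrb1 under 5 of 18. Without both libraries numbered 2, the list had 1 call, Prkar2a. Chrm2, the muscarinic receptor gene, had a log2 change of 0.11 (95% interval -0.17 to 0.40).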

How the data were processed

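RNA-seq values of 8 libraries (4 cKO, 4 control) were read from 1 table. Per the submitters' processing notes, FastQC, Trim Galore 0.6.7, HISAT2 2.2.1, StringTie 2.2.1, featureCounts, DESeq2 and GRCm38 were used, with no role given. The authors deposited TPM values, with the same sum in each library. The annotation and use of strand are not given in the sources used here. Start and end matched RefSeq of GRCm38.p6 for 49592 of the 49593 rows found there by symbol and chromosome.

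The log2(TPM + 1) scale was used with limma 3.58.1 (R 4.3.3). The 15541 rows with a mean of at least 1 TPM were fitted with group as the only term and eBayes with a trend. Tests were two-sided and Benjamini-Hochberg adjusted over all rows tested. The procedure was run on simulated data with independent noise for each gene and no effect shared by a library. That run does not speak to the calls made here. Fold changes on this scale understate those of low genes. Of the 9 genes, 5 passed the filter. The members and lists were chosen with earlier results of these data known. Genes named beside the members were up to 3 of each list with the smallest p among those past 0.05. They were also both neighbours of Hcn4, called neighbours of the other members, Rps19bp1, Cacna1c, Cacna1i and the 5 closest profiles to Hcn4. Other list genes, and neighbours that did not pass, were named after their values were seen. All 189 list genes were matched, 2 by older symbols (Irag1 as Mrvi1, Irag2 as Lrmp). The labels call the libraries biological replicates, with no note on pooling, and give all of them the same batch. Python 3.11.15 and matplotlib 3.10.9 drew the figures. No column of the table was left out. Some genes and 1 list are not reported here.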

Additional observations from a re-analysis of the deposited data

Results flagged for a closer look

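In 43 named genes, 86 groups of 4 libraries were examined for a library far from the other 3, and 5 stood out, where chance flags about 1 in 20. Tbx3 in control replicate 2 (2.65 TPM) was far below the other controls. Neo1 (55.9 TPM) in cKO replicate 3 and Sema3c (31.6 TPM) and Cited1 (809 TPM) in cKO replicate 2 were above the other cKO libraries. Cacna1i was above 0 in control replicate 1 alone among the controls (0.0158 TPM).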

How the results depend on the processing

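The alternatives were 10 planned settings, 8 that left out each library in turn, and the removal of both libraries numbered 2, which was chosen after seeing the data. The Hcn4 log2 difference lay between -0.87 and -0.66 over all 19. Rps19bp1 kept its call under all 19. The number of rows called was 994, and it was 347 with no filter on low values, 609 with eBayes without a trend, 227 without the libraries numbered 2, and 390 to 938 when single libraries were left out. The calls split into 336 higher and 658 lower as deposited, 383 and 380 after quantile normalization, 383 and 418 after median-ratio scaling, and 386 and 388 after rescaling without mitochondrial and globin rows. The cause was not tested.

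Cacna1d passed with a mean of at least 5 TPM (-0.36, which gave the pore list 1 call), and its log2 change was -0.43 to -0.30 when single libraries were left out (1 call at most). Cacna1g changed sign with array weights (-0.0075), where it was -0.0522 to 0.20 when single libraries were left out, and so did Tbx3 (-0.0131 with array weights, -0.0424 without the libraries numbered 2, and -0.28 to 0.32 with single libraries left out). Neither gene passed under any alternative, and Cacna1g had no value with the filter of 5 TPM.

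Called genes of the sinus node transcription list numbered 3. They were 1 with no filter, no trend, either scaling or quantile normalization, 0 without the libraries numbered 2, and 1 to 2 with single libraries left out. Calcium clock calls (1) were 0 with no filter, no trend or without the libraries numbered 2, and 0 to 1 with single libraries left out. Rate control calls (4) were 2 with no filter or quantile normalization, 1 without the libraries numbered 2, and 1 to 5 with single libraries left out. Potassium channel calls (1) were 0 without the libraries numbered 2 and 1 to 2 with single libraries left out, and calls among HCN partners (0) were 0 to 1. Called neighbours (4) were 0 with no filter or without the libraries numbered 2, 2 after median-ratio scaling or rescaling, and 1 to 2 with single libraries left out.

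The replicate numbers are shared between the groups. Deviations of same-numbered libraries correlated at -0.01, 0.07, 0.06 and -0.09 over the tested genes. Differently numbered libraries correlated at -0.13 to 0.12. Pairing by number was thus not seen over the tested genes as a whole, which cannot exclude it for some genes. For Tbx3 the standard error was 0.113 with a replicate block and 0.343 without it. With the replicate block 420 rows were called, and the block gave 1 sinus node transcription call, 0 calcium clock calls, 2 rate control calls and 1 neighbour call. The number of libraries limits the precision. TPM keeps no depth, so the part of counting noise cannot be told.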
